A study of Mus musculus with 27 samples.

Results

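The genes described here are the protein-coding neighbours of *Per2* on mouse chromosome 1, those that start within 10 Mb on either side of its start (GRCm38, Ensembl gene records as deposited). Start means the lower coordinate of a gene, whatever its strand, and before and after follow the coordinates. *Per2* and *Hes6* were left out, as were genes with names that begin with *Olfr*, *Rpl*, *Nduf*, *Cox*, *Kcn*, or *Col*. This left 155 of the 54532 genes in the table, 107 before and 48 after *Per2*. The rule reads position, biotype, and name, while the region itself was picked with earlier results of these data known.

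The libraries are bulk RNA-seq of mouse embryonic fibroblasts (MEFs) on days 0, 2, and 4 of direct reprogramming to induced neurons. Each day has 3 libraries of WT MEFs, 3 of *Per1*-/- MEFs, and 3 labelled *Per2*-/-, which gives 27 libraries in 9 groups. MEFs of all genotypes came from pooled embryos of undetermined sex and were transduced beforehand with doxycycline-inducible neuronal transcription factors and the transactivator. Doxycycline and neuronal medium were given from day 0 on, and according to the methods the day 0 RNA was taken before reprogramming. The 3 introduced factors summed to 0.029 to 0.572 FPKM in the day 0 libraries and to 834 to 3849 FPKM on days 2 and 4. The mutant alleles are germline, so every cell carried them, and the labels do not say whether replicates came from separate embryo pools, so the p-values measure only the spread between these libraries.

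PER2 is a circadian repressor that, with the cryptochromes, lowers transcription by CLOCK and BMAL1 from E-box motifs. The genes around it on the chromosome share its position and not its function. They include subunits and regulators of protein degradation, the UDP-glucuronosyltransferase 1A cluster, sulfotransferases, neuropeptides, and *D2hgdh*, which encodes the mitochondrial enzyme that oxidises D-2-hydroxyglutarate to 2-oxoglutarate. Genes next to a targeted locus are inherited together with it, and in these libraries the allele and the DNA linked to it cannot be told apart.

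Of the 155 neighbours, 74 reached 0.5 FPKM on average in the 27 libraries and were tested, 44 before and 30 after *Per2*. A further 65 were above 0 but below this level, and 16 were at 0 in every library. *Ramp1*, at a mean of 0.491 FPKM, was just below the limit, and *Htr2b*, at 0.502 FPKM, just above it. Of the tested genes, 27 had a mean of at least 10 FPKM and 7 a mean under 1 FPKM. Fragments on genes numbered 15815013 to 24264097 per library. Differences are on the log2(FPKM + 0.1) scale, and a gene was called where limma gave a Benjamini-Hochberg adjusted p of at most 0.05 over all 14932 tested genes and a log2 difference of at least 0.58 in size.

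The gene-level FPKM of *Per2* was not lower in the libraries with the label. The table gives no exon-level values, so the deleted part of the allele was not examined, and the value of the whole gene need not fall in a deletion. Its FPKM was 1.87, 2.00, and 1.90 in the day 0 libraries labelled *Per2*-/-, against 0.906, 0.957, and 0.817 in WT, and 2.54 to 3.30 on day 4 against 1.60 to 1.97 in WT. The libraries are therefore named by their label throughout. Fibroblast markers were high in all groups (summed 937 to 1697 FPKM for 8 genes). On day 2 their sum was 937 to 1013 FPKM in the labelled libraries, below all WT (1051 to 1259 FPKM) and *Per1*-/- libraries (1157 to 1523 FPKM), and its part in the day 2 differences was not tested. The sum of 8 neuronal markers lay between 26.8 and 49.1 FPKM on day 0 and between 97.7 and 185 FPKM on day 4. The 14 macrophage markers were also present, none at 0 in any group. Their sum on day 2 was 214 to 309 FPKM in WT, 422 to 710 FPKM in *Per1*-/-, and 122 to 210 FPKM in the libraries labelled *Per2*-/-. On day 4 it was 458 to 600 FPKM, 817 to 1283 FPKM, and 333 to 430 FPKM. The 3 introduced factors summed on day 2 to 1327 to 2408 FPKM in WT, 1441 to 1862 FPKM in *Per1*-/-, and 1835 to 3849 FPKM in the labelled libraries. The part of these factors in the day 2 differences was not tested.

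Upstream sequences are shown for both called neighbours, *D2hgdh* and *Ugt1a7c*, and for *Asb1*, since PER2 is known to act on promoters with E-boxes. Of the tested neighbours with a RefSeq promoter to search, *Asb1* was the nearest with a motif match. RefSeq promoters (GRCm38.p6, from 250 bases before to 50 bases after the start) matched 67 of the 74 tested neighbours, with 81 windows. The letters CACGTG were in 7 of these windows (8.64%), and in 7.15% of all 32851 windows, and CACGTT was in 5 (6.17%), and in 4.68% of all, on either strand. The canonical form was found at *Armc9*, *Cops8*, *Dtymk*, *Gigyf2*, *Hdlbp*, *Irs1*, and *Kif1a*, and the other form at *Asb1*, *Dis3l2*, *Itm2c*, *Pask*, and *Thap4*. The lines below give the stretch just before the RefSeq start, cut where an annotated exon begins, on the plus strand, with a motif in capitals. The stretches of *D2hgdh* and *Asb1* are inside the Ensembl records of these genes. That of *D2hgdh* lies at chr1:93825052-93825239, *Ugt1a7c* at chr1:88094751-88095000, and *Asb1*, the sixth tested neighbour by distance, at chr1:91540865-91541079. Another RefSeq start of *Asb1* had an annotated exon directly before it, which left 0 bases to show.
D2hgdh: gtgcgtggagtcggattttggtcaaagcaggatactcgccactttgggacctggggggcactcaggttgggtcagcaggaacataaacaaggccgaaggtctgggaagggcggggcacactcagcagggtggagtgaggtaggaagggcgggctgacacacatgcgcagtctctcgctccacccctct
Ugt1a7c: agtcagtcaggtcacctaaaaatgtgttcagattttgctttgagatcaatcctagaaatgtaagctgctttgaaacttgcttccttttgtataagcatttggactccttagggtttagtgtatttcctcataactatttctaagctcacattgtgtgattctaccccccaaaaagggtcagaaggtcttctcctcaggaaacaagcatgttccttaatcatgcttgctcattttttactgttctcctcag
Asb1: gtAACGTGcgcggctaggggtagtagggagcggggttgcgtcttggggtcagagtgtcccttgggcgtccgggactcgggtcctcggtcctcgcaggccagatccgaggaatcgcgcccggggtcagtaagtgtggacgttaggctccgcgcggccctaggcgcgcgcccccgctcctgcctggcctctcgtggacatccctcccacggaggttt
The capitals of *Asb1* are CACGTT read on the other strand, and neither motif was in the windows of *D2hgdh* and *Ugt1a7c*.

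*D2hgdh* (ENSMUSG00000073609, chr1:93824909-93852348, plus strand, 2.41 Mb after *Per2*) was lower in the libraries labelled *Per2*-/- than in both other genotypes, at 45% to 62% of their mean level. On day 0 the FPKM was 1.96, 2.47, and 1.86 in WT, 2.60, 2.05, and 2.06 in *Per1*-/-, and 1.25, 1.38, and 1.30 in the labelled libraries. On day 2 it was 3.78, 3.66, and 3.61 in WT, 3.77, 3.87, and 3.38 in *Per1*-/-, and 1.73, 1.68, and 1.54 in the labelled libraries. On day 4 it was 3.83, 3.65, and 3.24 in WT, 3.62, 3.42, and 3.76 in *Per1*-/-, and 1.50, 1.45, and 1.95 in the labelled libraries. The 3 labelled libraries lay below all 6 others on each day, with no overlap, and 94 to 419 fragments stood behind each value.

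Against WT the log2 difference of *D2hgdh* was -0.63 ± 0.12 (standard error, n = 3) on day 0 (limma adjusted p = 0.118), -1.11 ± 0.12 on day 2 (adjusted p = 0.000158), and -1.09 ± 0.12 on day 4 (adjusted p = 0.000221). Against *Per1*-/- it was -0.72, -1.11, and -1.11, with limma adjusted p of 0.0387, 0.000173, and 0.000179. *Per1*-/- and WT libraries differed by 0.09, -0.01, and 0.01, less than the standard error of 0.12 on each day. The exact two-sided permutation test of the 3 labelled libraries against the other 6 gave p = 0.0119 on every day, the smallest that 84 assignments allow. Over the 3 days together, the difference was -0.95 ± 0.08 against WT (adjusted p = 3.17e-06) and -0.98 ± 0.08 against *Per1*-/- (adjusted p = 1.75e-06). The day 0 call against *Per1*-/- was lost when any single library of the 6 was left out, with the difference between -0.78 and -0.61.

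**Figure D1:**
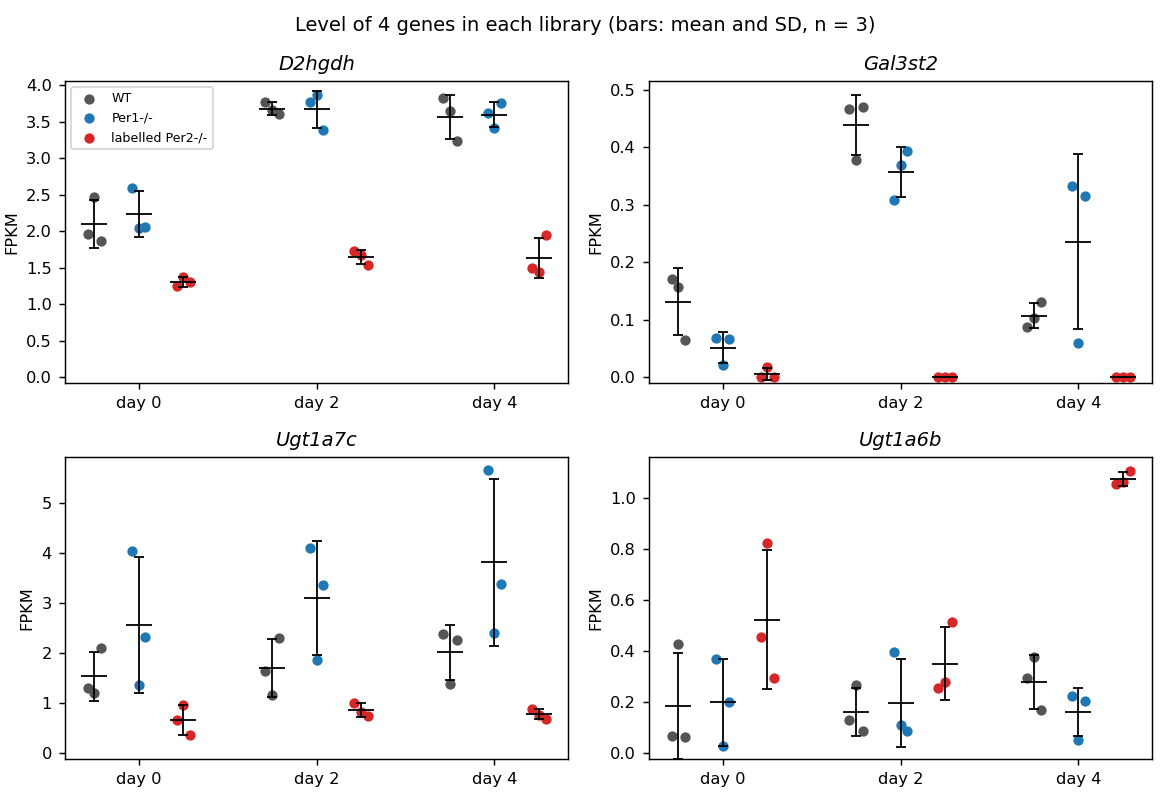
FPKM (vertical axes, each panel on its own linear scale) of *D2hgdh*, *Gal3st2*, *Ugt1a7c*, and *Ugt1a6b* in each of the 27 libraries, as points by day and genotype, with the mean and SD of 3 libraries as bars. The libraries labelled *Per2*-/- sit at the bottom for *D2hgdh*, *Gal3st2*, and *Ugt1a7c* on all days, and at 1.05 to 1.10 FPKM, above the rest, for *Ugt1a6b* on day 4.

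*D2hgdh* rose over reprogramming in WT and *Per1*-/-. It rose from day 0 to day 4 by a log2 change of 0.75 in WT (adjusted p = 2.10e-05) and 0.67 in *Per1*-/- (adjusted p = 6.96e-05), both called by limma. In the libraries labelled *Per2*-/- the change was 0.29 (adjusted p = 0.0465), under the fold limit. The interaction of the change with genotype was -0.46 ± 0.17 against WT (unadjusted p = 0.0153) and did not pass adjustment in limma (adjusted p = 1.00), so the changes of *D2hgdh* were not shown to differ between genotypes.

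The gene that follows *D2hgdh* on the same strand, *Gal3st2* (chr1:93861306-93876494, 8.96 kb beyond the end of *D2hgdh*), encodes a galactose-3-O-sulfotransferase and was almost without fragments in the libraries labelled *Per2*-/-. It is named after its values were seen, and at a mean of 0.147 FPKM it was below the limit for testing. Its fragments on day 2 numbered 37, 20, and 28 in WT, 22, 22, and 24 in *Per1*-/-, and 0 in each of the 3 labelled libraries. On day 4 they were 5, 7, and 9 in WT, 21, 3, and 22 in *Per1*-/-, and again 0 in all 3. On day 0 they were 10, 10, and 4 in WT, 4, 1, and 3 in *Per1*-/-, and 0, 1, and 0 in the labelled libraries. Summed over the days, 1 fragment was counted in the 9 labelled libraries, in 8 of which the gene was at 0, against 130 in the 9 WT and 122 in the 9 *Per1*-/- libraries, where no library was at 0.

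Set against a floor of 3 fragments over the group, *Gal3st2* on day 2 was at least 26.6-fold lower than in WT and at least 21.3-fold lower than in *Per1*-/-, and on day 4 at least 7.13-fold and 16.6-fold lower. On day 0 the ratio of WT to the labelled libraries was 21.6, with an exact 95% interval of 3.51 to 886 from 24 against 1 fragment. The folds of days 2 and 4 take the counts of WT and *Per1*-/- as exact, and the day 0 interval covers counting error only. In a limma fit of all 36800 genes above 0 in any library, 0, 2, and 1 of 139 neighbours were called against WT on days 0, 2, and 4 (0.0136%, 0.019%, and 0.0625% of these genes), and 1, 2, and 3 against *Per1*-/- (0.0245%, 0.0245%, and 0.274%). There, *Gal3st2* was called lower on day 2 against WT (adjusted p = 0.000620) and *Per1*-/- (adjusted p = 0.00307), and on day 4 against *Per1*-/- (adjusted p = 0.0154) but not WT (adjusted p = 0.288). On day 0 it was called against neither (adjusted p = 0.677 and 1.00). In this fit, 2 neighbours were called against WT over the 3 days together, *D2hgdh* and *Gal3st2* (0.0326% of these genes), and 4 against *Per1*-/-, *D2hgdh*, *Gal3st2*, *Ugt1a7c*, and *Gal3st2b* (0.307%).

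The paralog *Gal3st2b* (chr1:93918311-93942650), 66.0 kb beyond *D2hgdh*, went the other way at very low counts. It had 12, 33, and 25 fragments summed over the 3 labelled libraries on days 0, 2, and 4, against 1, 22, and 9 in WT and 0, 12, and 8 in *Per1*-/-. In the fit of all genes above 0, its log2 difference over the 3 days together was 0.75 against *Per1*-/- (limma adjusted p = 0.0462, called) and 0.59 against WT (adjusted p = 0.913). *Gal3st2*, *Gal3st2b*, and *Gal3st2c* are closely related genes, reads may be split between them in counting, and their levels are uncertain for that reason. Among the 65 neighbours above 0 but not tested, *Gal3st2* and *Sag* on day 0, *Gal3st2* on day 2, and *Gal3st2* and *Gpr35* on day 4 had all 3 labelled libraries below the other 6 in FPKM, beside 0.201%, 0.54%, and 0.393% of the 21868 untested genes above 0. *Gal3st2b* on days 0 and 2 and *Ugt1a6b* and *2310007B03Rik* on day 4 lay above, beside 0.535%, 0.649%, and 1.13%.

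No tested gene around *D2hgdh* was called with it. Within 250 kb of its start lie 11 other neighbours, 6 of them tested. *Ing5*, a chromatin reader that ends 2.81 kb before *D2hgdh*, differed from WT by -0.24, -0.15, and -0.11 on days 0, 2, and 4, and *Dtymk*, thymidylate kinase, by 0.04, -0.05, and 0.03. *Atg4b*, a protease of autophagy, differed by 0.04, -0.11, and -0.16. The differences of *Ing5*, *Dtymk*, and *Atg4b* from *Per1*-/- lay between -0.15 and 0.16. *Bok*, a BCL-2 family protein that starts 139 kb before *D2hgdh*, had larger differences.

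*Bok* had 19.0, 18.5, and 19.9 FPKM in the labelled libraries on day 0, within the range of 13.4 to 24.0 FPKM of the other 6. On day 2 it had 5.76, 4.46, and 3.99 FPKM, against 9.59, 11.0, and 11.0 in WT and 7.90, 9.97, and 8.80 in *Per1*-/-. On day 4 it had 4.78, 3.94, and 4.24 FPKM, against 5.03, 6.54, and 8.77 in WT and 8.95, 6.99, and 5.30 in *Per1*-/-. The labelled libraries of *Bok* were thus lowest on days 2 and 4 and not on day 0. The differences of -1.15 ± 0.21 against WT on day 2 (limma adjusted p = 0.0663) and -0.90 against *Per1*-/- (adjusted p = 0.114) were not called. The interaction of *Bok* over days 0 to 2 was -1.17 against WT (unadjusted p = 0.000844, limma adjusted p = 1.00).

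The second neighbour that was called, *Ugt1a7c* (chr1:88095062-88220002, 3.32 Mb before *Per2*), encodes a UDP-glucuronosyltransferase, an enzyme that conjugates small molecules with glucuronic acid. On day 0 its FPKM was 1.31, 1.20, and 2.09 in WT, 4.03, 1.35, and 2.31 in *Per1*-/-, and 0.660, 0.956, and 0.358 in the labelled libraries. On day 2 it was 1.63, 1.15, and 2.31 in WT, 4.09, 1.85, and 3.36 in *Per1*-/-, and 1.01, 0.815, and 0.738 in the labelled libraries. On day 4 it was 2.39, 1.38, and 2.26 in WT, 5.66, 2.40, and 3.38 in *Per1*-/-, and 0.883, 0.769, and 0.680 in the labelled libraries. The labelled libraries were again below all others on each day, while *Per1*-/- libraries spread upward from WT.

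Against *Per1*-/- the log2 difference of *Ugt1a7c* was -1.77, -1.69, and -2.08 (± 0.39), called on day 4 (limma adjusted p = 0.0159) and not on day 0 (adjusted p = 0.210) or day 2 (adjusted p = 0.106). Against WT it was -1.15, -0.87, and -1.24, with no call (adjusted p = 1.00 on each day). Over the 3 days together, it was -1.84 against *Per1*-/- (adjusted p = 0.000443) and -1.09 against WT (adjusted p = 0.309), and *Per1*-/- exceeded WT by 0.76 (adjusted p = 0.393). With libraries of a genotype that share a replicate number averaged over the 3 days into 1 value, the limma difference of -1.84 from *Per1*-/- was not called (adjusted p = 0.158). The labels do not say whether such libraries came from 1 culture. The macrophage markers were also highest in *Per1*-/- on days 2 and 4, and with their mean as a covariate the day 4 difference of *Ugt1a7c* was -2.18 and no longer called (adjusted p = 0.0738). The call was also lost without *Per1*-/- replicate 1 or 3, or without labelled replicate 1 or 3, of day 4.

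The transferases of the 1A cluster share their last exons and differ in the first, so fragments on shared exons cannot be assigned to 1 of them. Of the exon bases of *Ugt1a7c*, 54.6% also belong to other genes in the annotation, among them 8 other *Ugt1a* genes. *Ugt1a6b*, chosen after its values were seen, moved in the other direction from *Ugt1a7c*. Its fragments on day 4 were 56, 53, and 56 in the labelled libraries, against 13, 20, and 9 in WT and 11, 2, and 11 in *Per1*-/-. On days 0 and 2 the labelled libraries, with 12 to 37 fragments, overlapped the others, with 1 to 22. At a mean of 0.347 FPKM it was not tested, and in the fit of all genes above 0 its day 4 difference of 2.25 against *Per1*-/- (adjusted p = 0.0649) and 1.67 against WT (adjusted p = 0.459) was not called by limma. The difference of *Ugt1a6b* over the 3 days together was 1.38 (adjusted p = 0.0544) and 1.25 (adjusted p = 0.579), and neither was called.

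**Figure D2:**
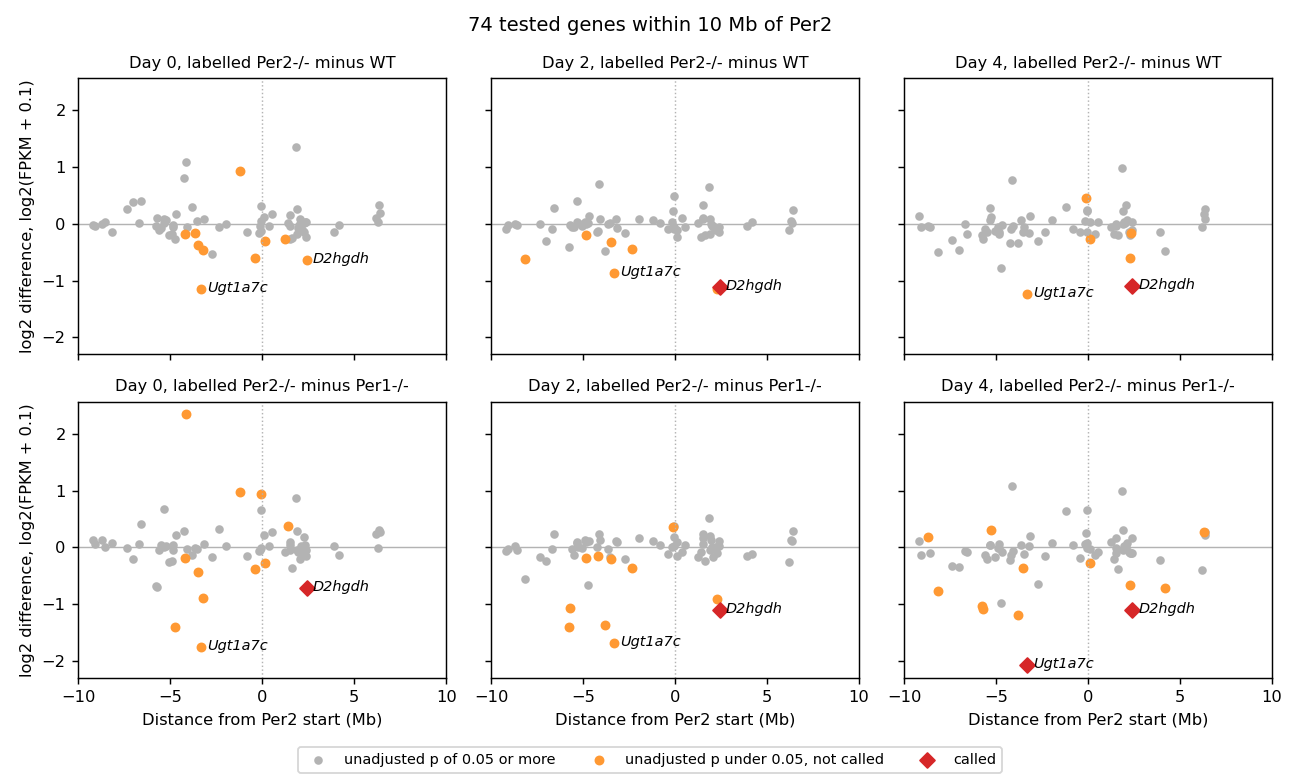
Log2 difference of the libraries labelled *Per2*-/- from WT (upper panels) and *Per1*-/- (lower panels) on days 0, 2, and 4 for the 74 tested neighbours, against their distance from the start of *Per2* in Mb. Red diamonds are called genes, orange points have an unadjusted p under 0.05 and are not called, and gray points are the rest. *D2hgdh*, 2.41 Mb after *Per2*, lies between -1.11 and -0.63, and *Ugt1a7c*, 3.32 Mb before it, between -2.08 and -0.87.

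By day, the number of neighbours called between the libraries labelled *Per2*-/- and WT was 0, 1, and 1 of 74 on days 0, 2, and 4, where 0.0067%, 0.0268%, and 0.0067% of all tested genes were called. All neighbours called in these comparisons were lower in the labelled libraries. Against *Per1*-/- it was 1, 1, and 2, beside 0.0201%, 0.0737%, and 0.556%. Against both at once, none was called on day 0 (0% of all tested genes), and *D2hgdh* was the 1 neighbour called on day 2 (0.0201% of all tested genes) and on day 4 (0.0067%). On days 0, 2, and 4, 7, 6, and 4 neighbours were lower at an unadjusted p under 0.05 against both, beside 0.723%, 0.864%, and 1.14% of all tested genes, and 1, 0, and 0 were higher, beside 0.455%, 0.489%, and 0.67%. Between *Per1*-/- and WT, which share no *Per2* label, 0 neighbours were called by limma on any day (0.0134%, 0.0067%, and 0.0268% of all genes), with 4, 3, and 5 at an unadjusted p under 0.05. Over the 3 days together 1 was called against WT (0.0268%), 2 against *Per1*-/- (0.616%), and 0 between *Per1*-/- and WT (0.0201%), where 8 had an unadjusted p under 0.05.

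Below the threshold for calls, more neighbours had small unadjusted p-values against WT than genes in general. On days 0, 2, and 4, 10, 7, and 6 of the 74 had an unadjusted p under 0.05 against WT, 13.5%, 9.46%, and 8.11%, beside 3.94%, 2.87%, and 3.42% of all tested genes. Of these, 9, 7, and 5 were lower in the libraries labelled *Per2*-/-, beside 2.18%, 1.56%, and 2.02% of all tested genes that were lower. Against *Per1*-/- the counts were 12, 11, and 13, or 16.2%, 14.9%, and 17.6%, beside 5.97%, 8.22%, and 13.2%. Between *Per1*-/- and WT, 5.41%, 4.05%, and 6.76% of the neighbours had such a p, beside 4.82%, 2.75%, and 6.19%. The comparisons against WT and *Per1*-/- share the labelled libraries, and neighbours of 1 region are not independent of each other.

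The median size of the log2 difference from WT was 0.13, 0.09, and 0.15 for the neighbours on days 0, 2, and 4, beside 0.10, 0.09, and 0.10 for all tested genes. Its signed median was -0.02, -0.04, and -0.05, with 33, 28, and 26 neighbours higher and 41, 46, and 48 lower. The signed median of all tested genes was -0.016, 0.0009, and -0.0095. Between *Per1*-/- and WT, 34, 30, and 42 neighbours were higher and 40, 44, and 32 lower.

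Over the 3 days together, 8 of 34 neighbours within 2.5 Mb (23.5%), 4 of 19 at 2.5 to 5 Mb (21.1%), and 1 of 21 at 5 to 10 Mb (4.76%) had an unadjusted p under 0.05 against WT, where 3.34% of all genes did. Among other protein-coding genes of chromosome 1 the share against WT was 8.22% of 73 at 10 to 20 Mb, 8.46% of 130 at 20 to 40 Mb, and 4.02% of 448 farther away. Against *Per1*-/- the shares of the neighbours were 23.5%, 42.1%, and 14.3%, those of the other genes of chromosome 1 were 16.4%, 19.2%, and 19.6%, and 13.4% of all genes had such a p. The shares by day did not keep 1 order over the 3 bins. Against WT, day 0 gave 14.7%, 26.3%, and 0%, day 2 gave 8.82%, 15.8%, and 4.76%, and day 4 gave 14.7%, 5.26%, and 0%. Against *Per1*-/-, day 0 gave 17.6%, 31.6%, and 0%, day 2 gave 11.8%, 26.3%, and 9.52%, and day 4 gave 8.82%, 21.1%, and 28.6%, highest in the farthest bin. Between *Per1*-/- and WT over the 3 days the shares were 2.94%, 21.1%, and 14.3% of the neighbours in the same 3 bins, beside 6.5% of all genes. The middle bin held the same share in the comparison without the labelled libraries. Its 4 genes between *Per1*-/- and WT were *Cops7b*, *Dgkd*, *Inpp5d*, and *Ugt1a7c*. Among the neighbours within 1 Mb, 3 of 11 had such a p against WT and none was called.

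**Figure D3:**
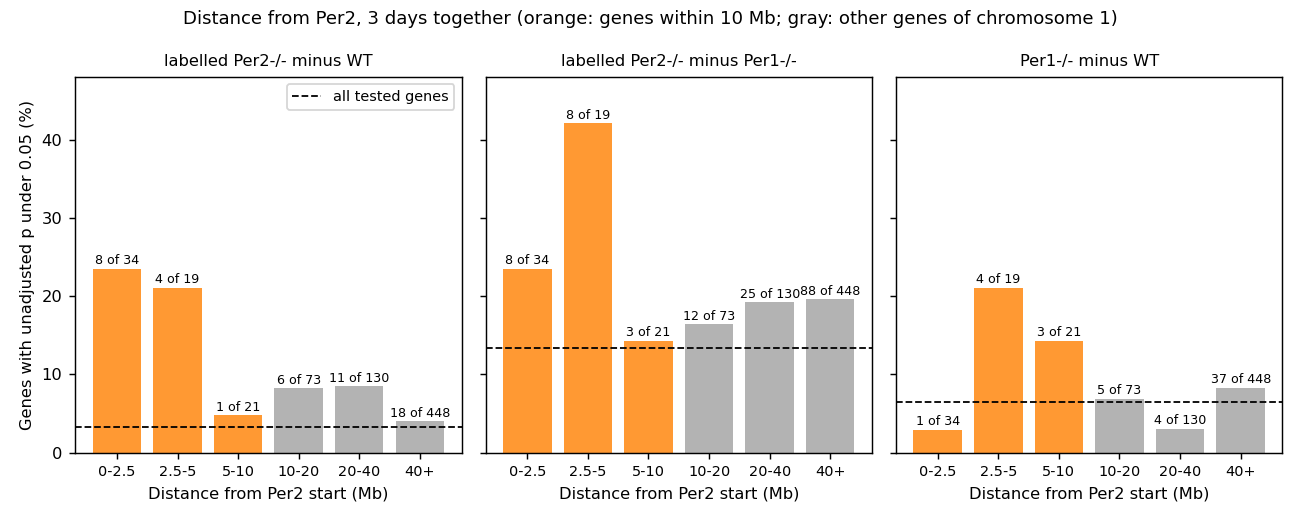
Percent of genes with an unadjusted p under 0.05 over the 3 days together (bars from 0, linear axis) by distance from the start of *Per2*, for 3 comparisons, with the number of genes above each bar. Orange bars are the neighbours within 10 Mb, gray bars other protein-coding genes of chromosome 1, and the dashed line the share of all tested genes. Against WT, the bars within 5 Mb stand at 23.5% and 21.1%, and the bar at 5 to 10 Mb at 4.76%.

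The 13 neighbours behind the comparison with WT over the 3 days were *Ugt1a7c*, *D2hgdh*, *Bok*, *Sphkap*, *Lrrfip1*, *Asb1*, *Usp40*, *Sh3bp4*, *Eif4e2*, *Pde6d*, *Stk25*, and *Ilkap*, all lower, and *Sned1*, higher. These 12 lower genes stand beside 2.03% of all tested genes. *D2hgdh* and *Ugt1a7c* had an unadjusted p under 0.05 on each of the 3 days, and *Asb1*, *Bok*, and *Usp40* on 2 or more. Aside from *D2hgdh* none of the 13 was called against WT, and *Ugt1a7c* was called against *Per1*-/- only. *Usp40*, *Eif4e2*, and *Lrrfip1* are described next and were chosen after their values were seen.

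*Usp40*, a deubiquitinating enzyme gene 3.47 Mb before *Per2*, had 3.13, 3.72, and 3.01 FPKM in the labelled libraries on day 0, against 3.97 to 4.63 in WT and 4.16 to 4.78 in *Per1*-/-. On day 2 it had 4.16, 4.22, and 4.63 FPKM against 4.84 to 5.57 in the other 6 libraries, and on day 4 the groups overlapped. Its differences from WT were -0.37, -0.32, and -0.05 (± 0.10), with limma adjusted p of 0.717, 1.00, and 1.00. *Lrrfip1*, which encodes a nucleic acid-binding protein 0.417 Mb before *Per2*, had 47.1, 39.1, and 44.8 FPKM on day 0, against 69.9, 66.2, and 63.4 in WT and 43.9, 68.8, and 61.6 in *Per1*-/-. The labelled libraries of *Lrrfip1* were below WT and overlapped *Per1*-/-, at a difference from WT of -0.61 ± 0.12 (limma adjusted p = 0.118), and by day 2 the difference was -0.09. *Eif4e2*, a cap-binding protein that limits translation, had 16.6, 16.6, and 15.8 FPKM on day 0 against 18.2 to 19.1 in the other 6, a difference from WT of -0.18 ± 0.07 (adjusted p = 1.00).

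All 3 labelled libraries lay beyond the other 6 of the day for 6 neighbours on day 0 (8.11%), 7 on day 2 (9.46%), and 8 on day 4 (10.8%), beside 1.67%, 4.65%, and 4.62% of all tested genes. *Eif4e2*, *Asb1*, *Usp40*, *D2hgdh*, and *Ugt1a7c* were lower and *Fbxo36* higher on day 0. *Bok*, *Usp40*, *Inpp5d*, *D2hgdh*, *Ugt1a7c*, and *Sphkap* were lower and *Scly* higher on day 2. *Itm2c*, *Lrrfip1*, *Stk25*, *Bok*, *Pid1*, *Inpp5d*, *D2hgdh*, and *Ugt1a7c* were lower on day 4. With the values rescaled to TPM the day 4 count was 5, and the share of all tested genes under TPM is not given, so this count has no background beside it.

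On all 3 days in 1 direction, 2 neighbours, *D2hgdh* and *Ugt1a7c*, and 7 of all tested genes (0.0469%) were separated in this way. The 7 were *D2hgdh*, *Ugt1a7c*, *Dars*, and *Dyrk2*, lower, and *Per2*, *Steap3*, and *Sall1*, higher. Of these, 5 lie on chromosome 1, which holds 859 (5.75%) of the tested genes. *Steap3*, a metalloreductase gene 28.8 Mb after *Per2*, had 14.1, 16.3, and 22.5 FPKM in the labelled libraries on day 0 against 4.35 to 8.58 in the other 6, and its difference from WT over the 3 days was 1.20 (limma adjusted p = 0.00198). *Dars*, an aspartyl-tRNA synthetase gene 36.9 Mb after *Per2*, differed by -0.31 (adjusted p = 0.134). Both lie outside the 10 Mb.

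The 5 nearest tested genes on each side of *Per2* showed no call against either genotype on any day. These are, in order, *Ube2f*, a NEDD8-conjugating enzyme, *Scly*, selenocysteine lyase, *Klhl30*, a kelch-like protein, *Erfe*, the hormone erythroferrone, and *Ilkap*, a phosphatase, before *Per2*, and *Traf3ip1*, a protein of intraflagellar transport, *Asb1*, a SOCS box protein, *Twist2*, a transcription factor of mesenchyme, *Hdac4*, a class IIa histone deacetylase, and *Cops9*, a subunit of the COP9 signalosome, after it. *Ilkap*, which starts 0.0421 Mb before *Per2*, differed from WT by -0.12, -0.10, and -0.14 (± 0.08), and from *Per1*-/- by -0.01, 0.02, and -0.01. *Traf3ip1*, 0.0787 Mb after the start of *Per2*, differed from WT by 0.11, -0.10, and 0.03 (± 0.16). The differences of *Traf3ip1* from WT were below their standard error, and those of *Ilkap* were below it against *Per1*-/- and above it against WT. With TPM the differences of *Ilkap* were -0.02 against WT and 0.10 against *Per1*-/- on day 0.

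*Asb1* was lower on average in the labelled libraries than in both other genotypes on each day, at 80.6% to 90.1% of their mean level. Its FPKM was 3.44, 3.43, and 3.35 in the labelled libraries on day 0, against 3.96, 4.25, and 4.48 in WT and 4.19, 3.55, and 4.77 in *Per1*-/-. On day 2 it was 5.45, 6.93, and 5.34, against 6.34, 7.06, and 7.40 in WT and 6.41, 6.79, and 6.46 in *Per1*-/-. On day 4 it was 4.90, 6.15, and 4.35, against 5.85, 5.78, and 6.80 in WT and 6.24, 6.62, and 5.65 in *Per1*-/-. Labelled replicate 2 of *Asb1* overlapped the other genotypes on days 2 and 4. The difference from WT was -0.30, -0.23, and -0.27 (± 0.12), with limma adjusted p of 1.00 on each day. *Scly* was higher on day 4, with 1.36, 1.46, and 1.96 FPKM against 1.28, 1.02, and 1.10 in WT and 1.51, 1.08, and 1.38 in *Per1*-/-, a difference from WT of 0.45 ± 0.17 (adjusted p = 1.00). *Klhl30* and *Erfe*, at a mean of 1.17 and 1.15 FPKM, had standard errors of 0.41 and 0.32, so that even differences of several standard errors could go uncalled.

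**Figure D4:**
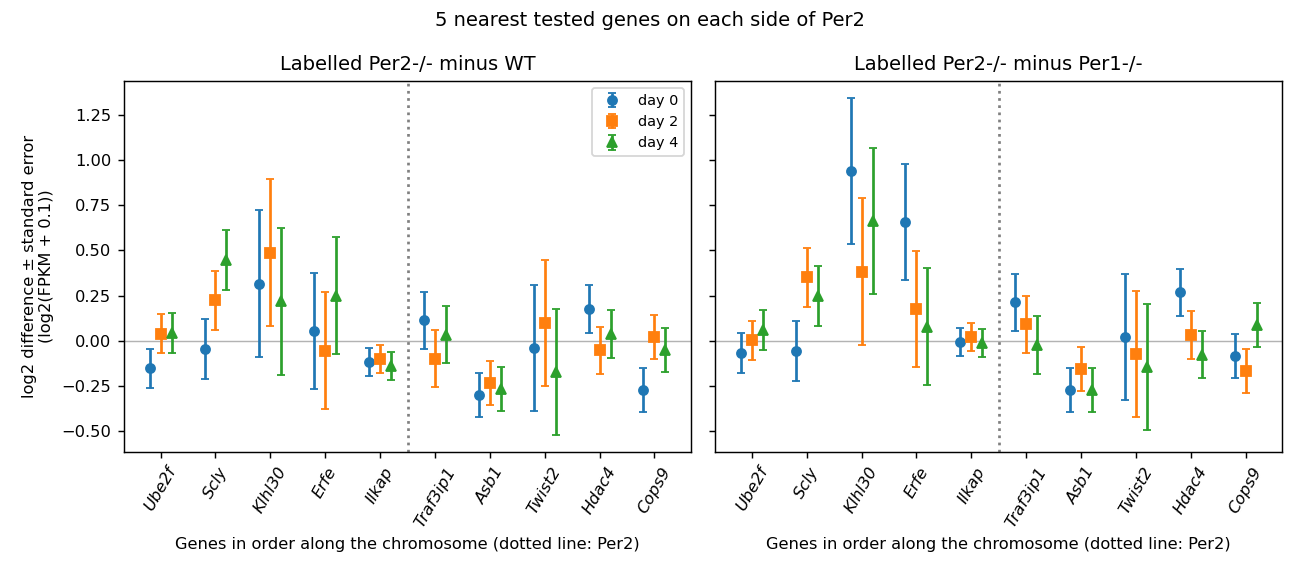
Log2 difference of the libraries labelled *Per2*-/- from WT (left) and *Per1*-/- (right), with the standard error as bars, for the 5 nearest tested genes on each side of *Per2* in chromosomal order, on days 0, 2, and 4 (3 libraries per group). *Asb1* lies below 0 at all 6 points, *Ilkap* within 0.15 of 0, and no point was called.

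The 3 neighbours with the highest levels were not called between genotypes. *Ptma*, prothymosin alpha, had 436, 514, and 596 FPKM in the labelled libraries on day 0, against 557 to 594 in WT and 495 to 826 in *Per1*-/-. *Hdlbp*, the RNA-binding protein vigilin, had 110, 113, and 98.9 FPKM against 100 to 115 in WT and 107 to 118 in *Per1*-/-. *Itm2c*, a membrane protein of the BRICHOS family, had 127, 139, and 135 FPKM on day 4 against 144 to 153 in WT and 145 to 165 in *Per1*-/-. The *Itm2c* libraries did not overlap on day 4, and the difference was not called by limma.

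By function, no member of the next 4 lists was called against WT, where 0.0067%, 0.0268%, and 0.0067% of all tested genes were called on days 0, 2, and 4. The shares of all tested genes that were lower at an unadjusted p under 0.05 were 2.18%, 1.56%, and 2.02%. Of 16 tested genes of protein turnover and translation, 0 were called against WT by limma on days 0, 2, and 4, and 3, 1, and 1 were lower at an unadjusted p under 0.05. Their median differences were -0.04, 0.01, and -0.03. Of 15 genes of vesicles, membranes, and autophagy, 0 were called, with 1, 3, and 2 lower at an unadjusted p under 0.05 and medians of 0.00, -0.10, and -0.05. Of 7 chromatin and transcription genes and 7 neuron-linked genes, 0 were called on any day, with 1, 0, and 0 and 0, 1, and 0 lower at an unadjusted p under 0.05. The extreme neuron-linked gene against *Per1*-/- was *Nppc*, C-type natriuretic peptide, at -1.40 on day 0, from 2, 3, and 1 fragments in the labelled libraries and 12, 4, and 8 in *Per1*-/-. With a pseudocount of 1 this difference of *Nppc* was -0.39, and neither was called by limma (adjusted p = 0.809 and 0.979).

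The 3 tested leukocyte-linked neighbours were *Inpp5d*, *Sp100*, and *Ackr3*, and included *Inpp5d* and *Sp100*, which were high where the macrophage markers were high. *Inpp5d*, which encodes the phosphatase SHIP1 of blood cells, had 9.58, 6.03, and 7.13 FPKM in *Per1*-/- on day 4, 4.05, 3.66, and 4.44 in WT, and 3.55, 2.83, and 3.21 in the labelled libraries. *Sp100*, a nuclear body protein, had 4.12, 1.74, and 1.89 FPKM in *Per1*-/- on day 4, 0.893, 1.43, and 1.65 in WT, and 0.689, 1.21, and 1.64 in the labelled libraries. For both, *Per1*-/- libraries were the highest and the labelled libraries overlapped WT or lay just below it. Over the 3 days the difference of *Sp100* from *Per1*-/- was -1.04 (limma adjusted p = 0.0589), and with the macrophage marker mean as a covariate it was -0.67 (adjusted p = 0.420). It was called without *Per1*-/- replicate 1 or 2 of day 0, labelled replicate 1 of day 0, or *Per1*-/- replicate 2 of all days (adjusted p = 0.0443, 0.0336, 0.0354, and 0.0202). *D2hgdh* with the same covariate differed from WT by -1.15 on day 2 and -1.12 on day 4, called on both. *Ackr3*, a chemokine-scavenging receptor also found on stromal cells, had 10.5, 13.0, and 22.6 FPKM in the labelled libraries on day 0, against 5.51, 11.6, and 6.86 in WT and 12.8, 5.14, and 6.01 in *Per1*-/-, with overlap between groups and a difference from WT of 0.93 that was not called. Fewer macrophages and less of such RNA per cell cannot be told apart in bulk libraries.

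Over reprogramming itself, of the 74, 29 were called between day 0 and day 2 and 30 between day 0 and day 4 in WT, beside 40.5% and 43.8% of all tested genes. In *Per1*-/- it was 30 and 30, beside 39.6% and 43%, and in the libraries labelled *Per2*-/- 27 and 26, beside 35.5% and 40.3%. In all 3 genotypes, 10 were called higher (15.5% of all tested genes) and 12 lower (13.5%) on day 2, and 12 higher (17.6%) and 11 lower (15.6%) on day 4. *Dner*, *St8sia4*, *Sphkap*, *Ncl*, and *Arl4c* are named from these after their values were seen.

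*Dner*, a Notch ligand of neurons, had 0.923, 0.798, and 0.750 FPKM in WT on day 0 and 25.2, 27.3, and 39.4 on day 4, and in the labelled libraries 1.54, 0.632, and 1.37 FPKM and then 20.3, 31.6, and 16.4. The log2 changes of *Dner* were 5.03 in WT, 4.32 in *Per1*-/-, and 4.18 in the labelled libraries. *Ecel1*, a neuronal endopeptidase, rose by 5.58, 4.95, and 4.43, *St8sia4*, a polysialyltransferase, by 3.41, 3.53, and 2.95, and *Sphkap*, an anchoring protein, by 2.77, 3.25, and 2.42. *Nppc* rose by 2.93, 2.01, and 2.43. All of these were called in each genotype.

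*Lrrfip1* fell by 2.47, 2.21, and 2.01 on the log2 scale from day 0 to day 4 in WT, *Per1*-/-, and the labelled libraries, and *Twist2* by 1.97, 1.94, and 2.11. *Ncl*, nucleolin, fell by 1.27, 1.29, and 1.20, and *Arl4c*, a small GTPase, by 1.90, 1.20, and 1.68. *Erfe* fell by 2.84, 2.06, and 2.64, *Klhl30* by 1.88, 1.70, and 1.98, and *Ube2f* by 0.97, 0.90, and 0.77. *Bok* fell by 1.51, 1.27, and 2.13. These changes of *Lrrfip1*, *Twist2*, *Ncl*, *Arl4c*, *Erfe*, *Klhl30*, *Ube2f*, and *Bok* were called in each genotype.

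Called in WT and *Per1*-/- and not in the libraries labelled *Per2*-/- were the rises of *D2hgdh*, *Hdac4*, and *Sp100* on day 2 and of *D2hgdh*, *A630001G21Rik*, and *Dis3l2* on day 4, and the fall of *Eif4e2* on day 4. Such a pattern of calls does not show a difference, which the interaction tests. Of all tested genes, 0 (0%) passed the interaction of the labelled libraries with WT or *Per1*-/- on either day in limma, and 4 and 7 neighbours against WT and 5 and 8 against *Per1*-/- had an unadjusted p under 0.05, beside 2.91%, 2.61%, 4.49%, and 5.99% of all genes.

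**Figure D5:**
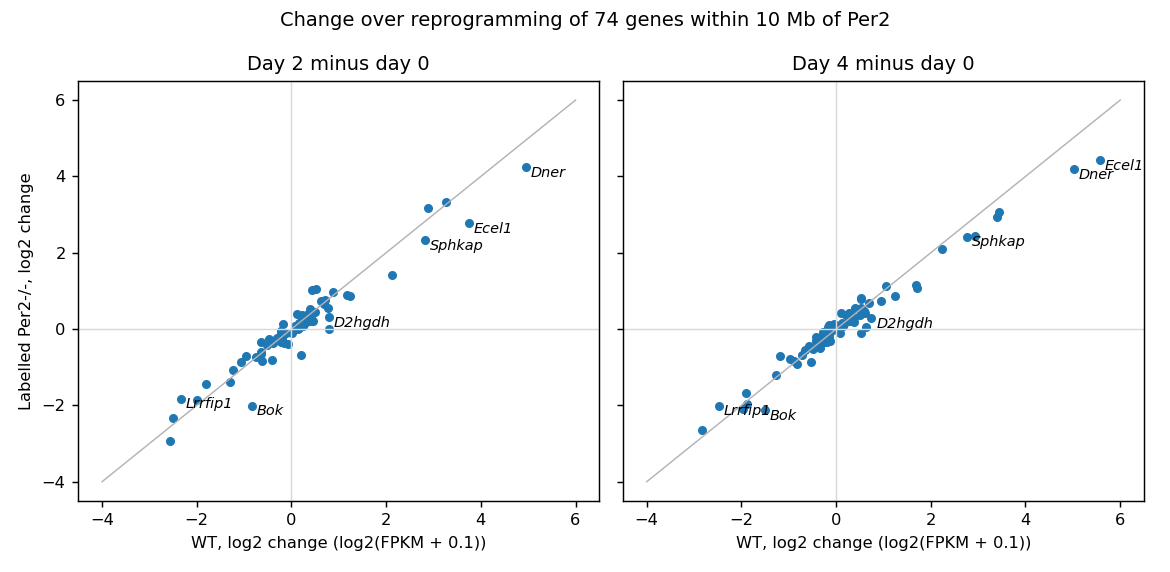
Log2 change from day 0 to day 2 (left) and day 4 (right) of the 74 tested neighbours in WT (horizontal axis) and in the libraries labelled *Per2*-/- (vertical axis), on the log2(FPKM + 0.1) scale, with the line of equal change. *Dner* and *Ecel1* are at the upper right, *Lrrfip1* and *Bok* at the lower left, and *D2hgdh* lies below the line at 0.75 against 0.29 on day 4.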

How the data were processed

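For 27 libraries and 54532 genes, the authors deposited 1 table of FPKM values. According to the methods and the submitters' processing notes, the authors made unstranded poly-A libraries, aligned the reads to GRCm38 with HISAT2 2.0.5, and counted them with featureCounts 1.5.0-p3. Every deposited FPKM value came out as a whole number of fragments within 0.01, given the deposited gene lengths. Libraries held 15815013 to 24264097 fragments on genes. Reads of overlapping genes cannot be assigned by strand, and 33 of the 74 tested neighbours share exon bases with another gene.

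Genes that averaged 0.5 FPKM or more were tested on log2(FPKM + 0.1) with limma 3.58.1 in R 4.3.3 (lmFit, contrasts.fit, eBayes with trend) in a model of 9 groups, and p-values were adjusted over 14932 genes. A fold change on this scale understates the change of low genes. The 3 days together were fitted with a correlation of 0.164 between libraries of a genotype that share a replicate number, which was estimated again in each alternative that keeps it. Tables were handled with pandas 2.3.3 and numpy 2.4.6 in Python 3.11.15, and plots drawn with matplotlib 3.10.9. The deposited values are FPKM, and count tests such as the authors' DESeq2 were not run. Recovered fragments were used with voom weights as an alternative. The procedure was tested on simulated data.

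Members and gene lists were chosen with earlier results of these data known. The genes named are *D2hgdh*, the 5 nearest tested genes on each side of *Per2*, neighbours called or separated on all days, and the 3 with the highest levels. From each list, the most changed and the least changed tested gene are named, by the size of the mean difference in either direction. Others were chosen after their values were seen.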

Additional observations from a re-analysis of the deposited data

How the results depend on the processing

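*D2hgdh* kept its direction in all alternatives run, at -1.17 to -0.80 against WT on days 2 and 4 under settings other than leaving out a library, and -1.22 to -1.02 with each library left out in turn. It was called on both days except in fits of only the groups compared (adjusted p = 0.113 and 0.560), which have fewer libraries. Those fits gave 0 neighbours called against WT, *Per1*-/-, or both on day 2, 0 against WT or both on day 4, 0 against *Per1*-/- on day 0, 1 against *Per1*-/- on day 4, and 0 within 2.5 Mb. The numbers of members called against *Per1*-/- on day 0 were 0 with TPM, a pseudocount of 1, or voom and 2 (*D2hgdh* and *Dnajb3*) with a pseudocount of 0.01. With TPM or the macrophage covariate 1 (*D2hgdh*) was called against *Per1*-/- on day 4, and with voom 3 (*D2hgdh*, *Inpp5d*, and *Ugt1a7c*). The covariate also gave 1 against WT on day 0 (*Lrrfip1*) and 2 within 2.5 Mb (*D2hgdh* and *Lrrfip1*). With all genes above 0, 2 (*D2hgdh* and *Gal3st2*) were called against WT, *Per1*-/-, or both on day 2, 2 within 2.5 Mb, and, over the 3 days, 2 against WT and 4 against *Per1*-/-. The mean of the 3 days per genotype and replicate number gave 1 against *Per1*-/-, without *Ugt1a7c*. Within 2 Mb in place of 2.5 Mb, 0 were called against WT on any day, since *D2hgdh* lies farther away. Without a minimum fold change the counts over days were 51 and 48 in WT and 43 and 47 in the libraries labelled *Per2*-/-. These counts keep the limit on the adjusted p. At an unadjusted limma p under 0.05 they were 52 and 51 in WT and 48 and 50 in the labelled libraries, beside 60% to 67% of all tested genes. With TPM 5 members were separated on day 4. Except for the fit of all genes above 0, shares of all tested genes are not given for the alternatives or for fits with libraries left out. Their counts therefore describe the members alone.

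Leaving out 1 library moved the count against *Per1*-/- between 0 and 1 on day 0, where the 1 was *Dnajb3*, called without *Per1*-/- replicate 3. On day 4 the count against *Per1*-/- moved between 1 and 2. The count within 2.5 Mb moved between 1 and 2, the latter without WT replicate 1 or 3 of day 4. Over the 3 days against *Per1*-/- the count was between 2 and 4 with 1 library or 1 replicate of all days left out, in place of 2. It was 4 without *Per1*-/- replicate 1 of day 0 (*D2hgdh*, *Ugt1a7c*, *Inpp5d*, and *Sp100*), a setting added after the data were seen, and without *Per1*-/- replicate 1 of all days (*D2hgdh*, *Ugt1a7c*, *Efhd1*, and *Sned1*), and leaving out *Per1*-/- replicate 2 gave 1 (*Ugt1a7c*) between *Per1*-/- and WT in place of 0.

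Replicate numbers did not pair libraries between genotypes: across genes, deviations of same-numbered libraries of a day correlated at -0.256 to 0.192. Between days of a genotype they correlated at -0.0172 to 0.294, with all 3 pairs above 0.1 for 3 of 9 pairs of groups. With the number as a block within days, 0 members were called against *Per1*-/- on day 0 in place of 1, and the other counts between genotypes, those over the 3 days together included, did not move. With the genotype and number as a block, added after the data were seen, all members called over days were called again, and *Sned1* on day 2 and *Ugt1a7c* on day 4 in *Per1*-/-, and *Sned1* and *Ackr3* on day 2 in the labelled libraries, were called in addition. No interaction was called with this block.

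The main limits are 3 libraries per group and low counts for *Gal3st2*, *Gal3st2b*, and *Ugt1a6b*, which the tested set leaves out. A further limit is that the deleted part of *Per2* was not examined. Its gene-level FPKM was not lower under the label and need not fall in a deletion.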
